A study of Mus musculus with 4 samples.

Results

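The olfactory receptor genes of mouse chromosomes 9 and 11 were examined here as genes with no known role in endothelium, to show how often RNA polymerase II (Pol II) peaks were called near promoters of that kind. Members were all protein-coding genes of the GENCODE M21 basic annotation (GRCm38, the build also called mm10) whose symbol is Olfr followed by a number, and they came to 209 of 21951 protein-coding genes, 129 on chromosome 9 and 80 on chromosome 11. The rule uses the symbol and the chromosome and no peak value. A member was counted in a library when a called peak overlapped the 1500 bp on either side of any of its annotated transcription start sites (TSSs), and such a peak is called a TSS peak below.

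The libraries came from flow-sorted brain endothelial cells (ECs) of 2 groups of mice. The old WT Cre group (20 to 23 mo) carried the CDH5-CreERT2 transgene, in which the promoter of Cdh5 (VE-cadherin) drives a tamoxifen-inducible Cre, without floxed Klf4. The young EC-K4KO group (4 to 6 mo) carried the same transgene with floxed Klf4, which deletes this transcription factor gene in ECs. Mice of both genotypes were given tamoxifen at 8 wk of age. Each library was made from 200000 cells, and each group had 2 libraries. No transcript was measured in these libraries, so whether the genes were silent was not measured. Age and genotype changed together between the groups, so their parts cannot be told apart, and the methods call the libraries of a group biological replicates, without a word on whether the mice were pooled.

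Olfactory receptor genes encode the odorant receptors of the nose, G protein-coupled receptors that form one of the largest gene families of the mouse. They lie in clusters, usually hold their whole coding sequence in a single exon, and start from AT-rich, CpG-poor promoters. Each olfactory sensory neuron expresses 1 receptor gene, while the rest of the family is packed in heterochromatin. Receptors signal through the G protein subunit Golf, adenylyl cyclase 3 and a cyclic nucleotide-gated channel.

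The peak caller counted 22705175 to 65734178 fragments per library, and the deposited lists held 35638 to 235591 peaks. Young EC-K4KO replicate 2 stands apart, with the fewest fragments and the most peaks, and it supplies 77 of the 117 peaks at members, so sums over the libraries below are mostly its peaks. The 12 endothelial marker genes had a TSS peak for 6 and 7 genes in the old WT Cre libraries and for 1 and 8 genes in the young EC-K4KO libraries, and Cdh5 itself had one in 3 of the 4. Of 5 markers of olfactory sensory neurons (Omp, Gng13, Cnga2, Stoml3 and Rtp1), none had a TSS peak in 3 of the libraries, and Cnga2 and Stoml3 had one in young EC-K4KO replicate 2. In that library 4 of 5 neuronal, 4 of 5 microglial, 4 of 5 oligodendrocyte, 3 of 5 pericyte and smooth muscle, and 2 of 5 astrocyte markers also had a TSS peak, against 0 to 2 of 5 for each of these types in the other libraries. In the same library 67.5% of all protein-coding genes had one, and these counts and the 8 of 12 for endothelium stand beside that share. The part of other cells in these peaks was not tested.

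TSS peaks were found at 15 members in old WT Cre replicate 1, at 7 in old WT Cre replicate 2, at 15 in young EC-K4KO replicate 1 and at 63 in young EC-K4KO replicate 2. These counts are 7.18% (95% exact interval 4.07 to 11.6), 3.35% (1.36 to 6.78), 7.18% (4.07 to 11.6) and 30.1% (24.01 to 36.9) of the 209 members, where the intervals cover counting error only. Over all 21951 protein-coding genes the shares were 25.6%, 24.5%, 10.6% and 67.5% in the same order. Members were thus called less often than other genes in 4 of 4 libraries, with differences of -18.6, -21.3, -3.50 and -37.7 percentage points from the 21742 other genes. In young EC-K4KO replicate 1 the share of the other genes, 10.7%, lay within the members' interval. The mean difference was -20.3 ± 14.0 points (SD, n = 4 libraries; two-sided exact sign-flip permutation test over the libraries, p = 0.125, the smallest p that 4 libraries allow). The ratio of the members' share to that of the other genes was 0.278 and 0.136 for old WT Cre and 0.672 and 0.444 for young EC-K4KO. Young EC-K4KO replicate 1 had the lowest share of other genes, the smallest gap and the highest ratio. The order of the ratios changed with the setting, and with lists of equal length young EC-K4KO replicate 2 had the lowest.

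**Figure D1:**
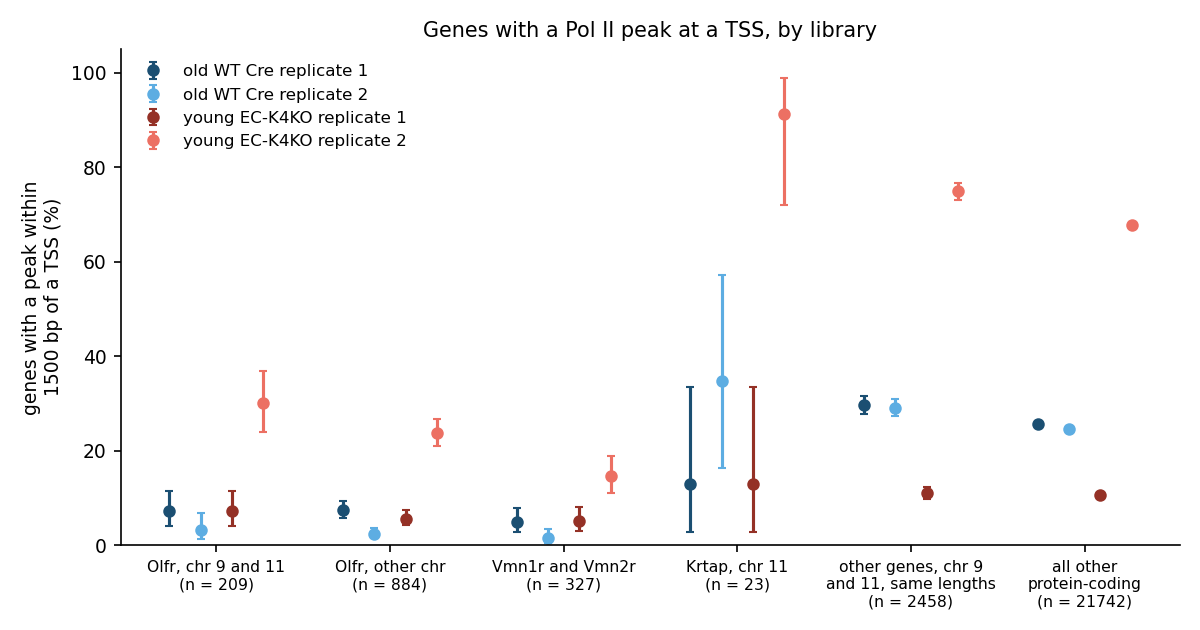
Percent of genes with a peak within 1500 bp of a TSS (vertical axis) in 6 gene sets (horizontal axis, with the number of genes), 1 point per library with its 95% exact binomial interval. The Olfr genes of chromosomes 9 and 11 lie at 3.35% to 7.18% in 3 libraries and at 30.1% in young EC-K4KO replicate 2, below all other protein-coding genes in each library.

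In all, 75 of the 209 members (35.9%) had a TSS peak in at least 1 library, against 74.6% of all protein-coding genes, and 134 had none in any library. Of the 75, 55 had one in 1 library alone, 15 in 2, 5 in 3 and none in all 4. At least 3 libraries were reached by 2.39% of members and by 13.1% of all genes. Both old WT Cre libraries had a TSS peak at 1 member (0.478%, against 10.1% of all genes), and both young EC-K4KO libraries at 9 members (4.31%, against 9.14%). The plot of members in genome order shows how thinly the calls were spread in the first 3 libraries and how they thickened on chromosome 11.

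**Figure D2:**
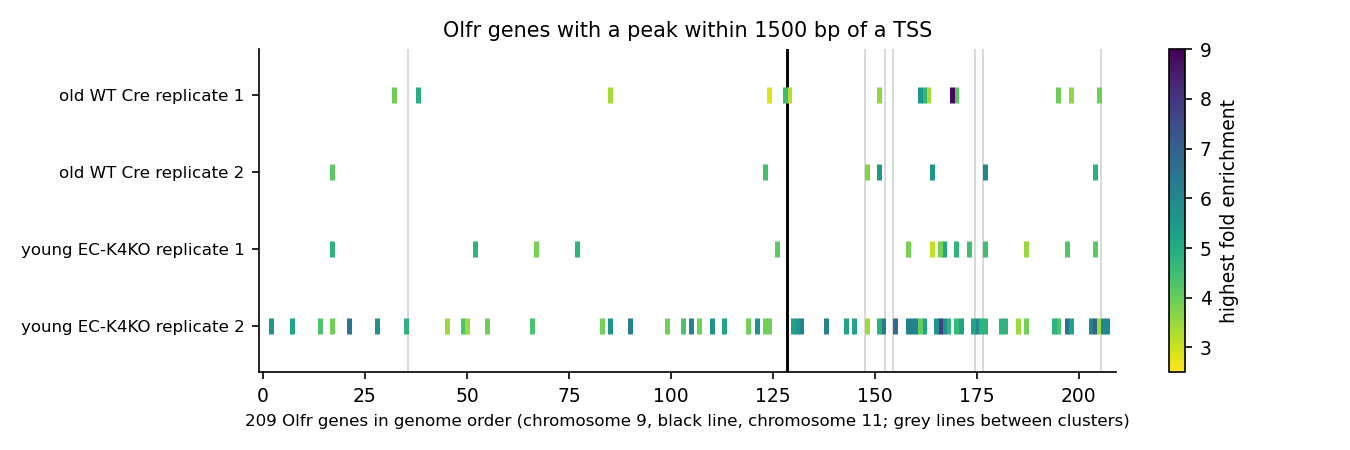
Each mark is 1 of the 209 Olfr genes with a TSS peak in a library (rows), placed by its order along chromosomes 9 and 11 (horizontal axis) and coloured by its highest fold enrichment. The rows hold 15, 7, 15 and 63 marks, and most genes have a mark in no row or in 1 row.

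Other genes of like length were called more often than members in 4 of 4 libraries. Members were 930 to 156499 bp long (median 5859 bp), and 2458 other genes of chromosomes 9 and 11 lie in that range, with a longer median of 16921.5 bp. Of these, 29.7%, 29.2%, 11.1% and 74.9% had a TSS peak in the 4 libraries, in the order used above. Among the 300 other genes within the members' interquartile range of length, with a median of 6044 bp, the shares were 23.3%, 23%, 7.67% and 65.3%. The members lay below this closer set in 4 of 4 libraries, though in young EC-K4KO replicate 1 its share was within their interval.

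The members were next set against the chromosomes themselves. The share of all sequenced positions of chromosomes 9 and 11 that lie within 1500 bp of a peak, weighted by the number of members on each, is the rate at which a start placed anywhere would be counted. It was 11.2%, 5.66%, 4.52% and 29.8%. With all their annotated starts, members differed from this rate by -4.06 and -2.31 points in old WT Cre replicates 1 and 2, and by 2.66 and 0.370 points in young EC-K4KO replicates 1 and 2. The mean difference was -0.836 ± 2.96 points (SD, n = 4; two-sided exact sign-flip permutation test, p = 0.75), which is smaller than the spread between libraries. It became 0.239 points without old WT Cre replicate 1. On chromosome 9 alone members lay below the rate in 4 of 4 libraries and on chromosome 11 alone above it in 4 of 4, where the mean difference was 6.45 points (two-sided exact sign-flip permutation test, p = 0.125). That direction turns with 1 start per gene, when the chromosome 11 members had shares of 3.75%, 3.75%, 1.25% and 17.5%, below the chromosome 11 rates of 11.7%, 5.81%, 4.35% and 31.1%.

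A member has up to 4 annotated starts (174 of 209 have more than 1), and each start adds a window. With 1 window per gene, at the 5'-most start, the members' shares fell to 2.87%, 1.44%, 1.91% and 13.9%, and those of the other genes to 23.2%, 22.96%, 9.58% and 64.5%. On this footing, chosen after the values were seen, members were below the rate of chromosome positions in 4 of 4 libraries, with a mean difference of -7.77 ± 5.94 points (SD, n = 4). They were also below the rate of positions inside their own clusters (7.81%, 4.07%, 5.40% and 20.2%) in 4 of 4 libraries. Most of the members' calls therefore came from starts other than the 5'-most one.

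The windows of the members are AT-rich. The 3001 bp around the 5'-most start had a median GC content of 37.7% (29.9 to 48.98) in members, 36.2% in the 884 Olfr genes of other chromosomes and 49.4% in all other protein-coding genes. In the 300 bp from 250 bp before to 50 bp after the start, the ratio of observed to expected CpG dinucleotides had a median of 0.0881 in members and 0.558 in other genes. The members with a TSS peak in at least 1 library had a median window GC of 39.9%, those in at least 2 libraries 42.1% and those in none 36.02%.

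Among members, both classes above 40% window GC had a TSS peak more often than both classes from 30 to 40% in 3 of 4 libraries. In young EC-K4KO replicate 2 it was 11.7% of 60 members at 30 to 35% GC, 30.4% of 92 at 35 to 40%, 42.6% of 47 at 40 to 45%, and 88.9% of the 9 at 45 to 50%. The same classes gave 3.33%, 3.26%, 17.0% and 22.2% in old WT Cre replicate 1 and 0%, 2.17%, 8.51% and 11.1% in its replicate 2. The exception was young EC-K4KO replicate 1, with 3.33%, 7.61%, 12.8% and 0%. Genes that are not olfactory receptors, over all chromosomes, had shares that rose with each class, 3.75%, 17.6%, 46.7% and 74.6% in young EC-K4KO replicate 2 and 1.87%, 6.63%, 17.99% and 30.2% in old WT Cre replicate 1. The other genes' share lay within the members' 95% exact interval in each of these classes and libraries, except at 30 to 35% and 35 to 40% GC in young EC-K4KO replicate 2, where members were higher (intervals 4.82 to 22.6% and 21.3 to 40.9%). With the 5'-most start alone, the shares of that library at 30 to 35% GC were 6.67% for members and 2.62% for other genes. At 35 to 40% the direction turned, with 10.9% and 13.6%, and at 40 to 45% they were 19.1% and 41.6%.

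When each GC class of those other genes was weighted by the number of members in it, their share came to 8.81%, 6.09%, 5.17% and 22.5%, beside 7.18%, 3.35%, 7.18% and 30.1% for the members. With the 5'-most start alone, both were lower, 7.28%, 5.09%, 4.32% and 19.2% for the other genes and 2.87%, 1.44%, 1.91% and 13.9% for the members. Tiles of 3001 bp laid end to end over chromosomes 9 and 11, weighted to the members' GC in the same way, held a peak in 5.21%, 2.42%, 2.47% and 14.7% of cases. With 1 start each, members thus differed by -2.34 to -0.556 points from tiles of their own GC content over the 4 libraries, and by -5.27 to -2.41 points from other genes of that GC content.

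**Figure D3:**
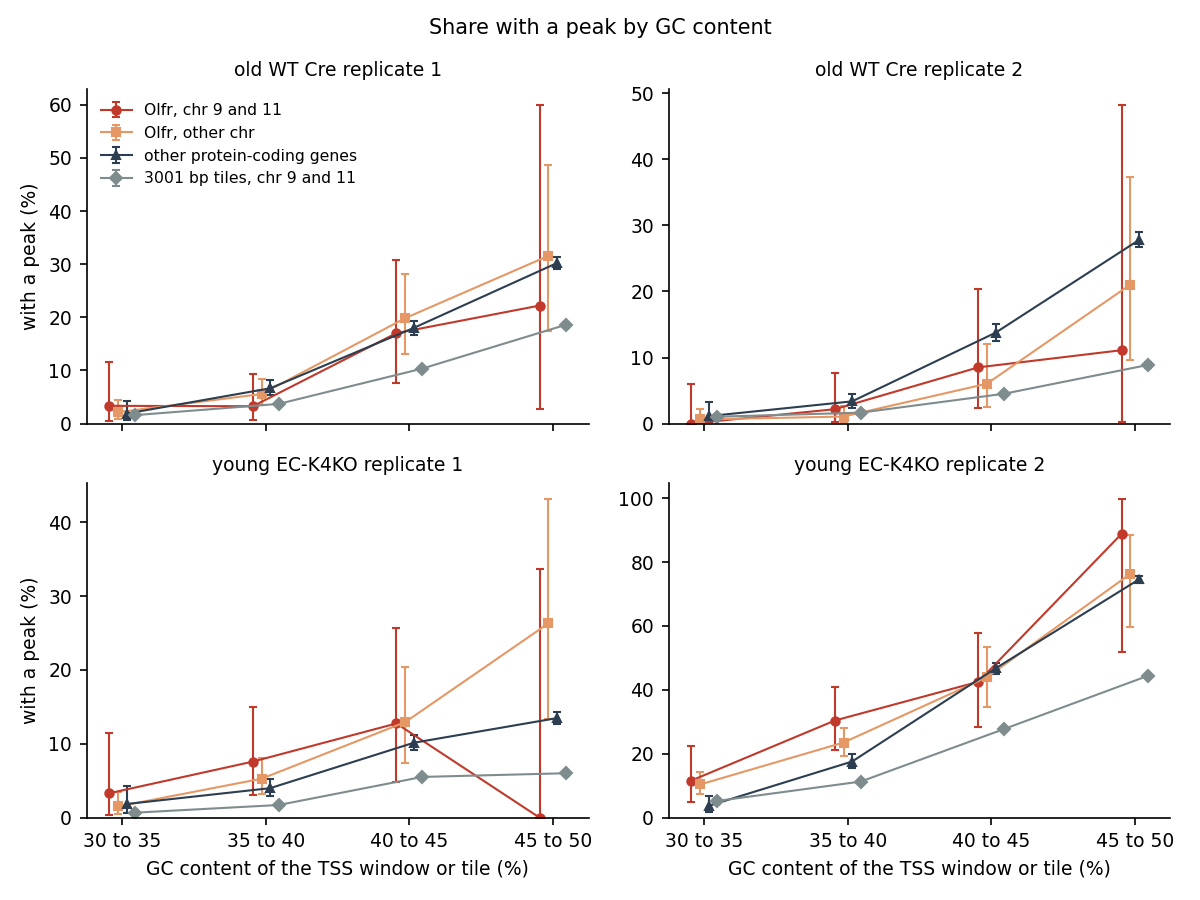
Percent with a peak (vertical axis, scaled separately in each of the 4 library panels) by GC content of the TSS window or tile in classes of 5 percentage points (horizontal axis), with 95% exact binomial intervals. The Olfr genes of chromosomes 9 and 11 (209 genes in all) reach their highest share at 45 to 50% GC in 3 of 4 panels (22.2%, 11.1% and 88.9%), and in young EC-K4KO replicate 1 none of the 9 members of that class has a peak.

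On chromosomes 9 and 11 alone the GC-weighted share of other genes was higher, 25.7%, 21.4%, 19.6% and 40.3%, and rested on few genes. That comparison holds 6 genes at 30 to 35% GC and 54 at 35 to 40%. All 9 protein-coding genes of the first 100 kb of assembled sequence on chromosome 9 had a TSS peak in 4 of 4 libraries, and 9 of the 60 AT-rich genes lie there. Without them, 4 and 47 genes remain, and at 35 to 40% GC their shares were 8.51%, 4.26%, 4.26% and 10.6%.

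Summits in the members' windows lay close to a TSS less often than those of other genes in 4 of 4 libraries. A summit within 250 bp of a TSS was found for 0 of 15 summits in old WT Cre replicate 1, 1 of 7 in old WT Cre replicate 2, 5 of 15 in young EC-K4KO replicate 1 and 13 of 77 in young EC-K4KO replicate 2. These are 0%, 14.3%, 33.3% and 16.9%, where summits spread evenly over the members' windows would give 18.9%. In the other protein-coding genes 37.55%, 47.0%, 43.2% and 43.1% of summits lay that close, which is above the members' 95% exact interval in old WT Cre replicate 1 (0 to 21.8%) and young EC-K4KO replicate 2 (9.31 to 27.1%). It lies within that interval in old WT Cre replicate 2 (0.361 to 57.9%) and young EC-K4KO replicate 1 (11.8 to 61.6%). The median distance from a summit to the nearest TSS was 838, 535, 420 and 738 bp in members and 361.5, 270, 323.5 and 320 bp in other genes.

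**Figure D4:**
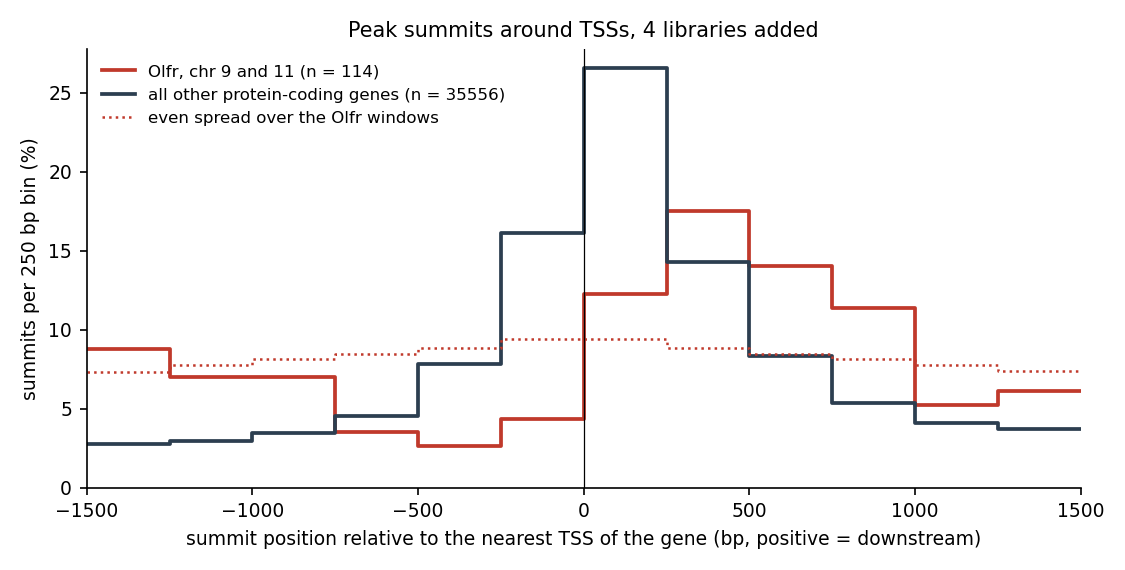
Percent of summits in bins of 250 bp (vertical axis) by distance from the nearest TSS of the gene (horizontal axis, bp), the 4 libraries added, for the Olfr genes and for all other protein-coding genes, with a dotted line for summits spread evenly over the Olfr windows. Other genes peak in the bin just downstream of the TSS, and the sum for the Olfr genes, 77 of whose summits are from young EC-K4KO replicate 2, is highest from 250 to 500 bp downstream, while young EC-K4KO replicate 1 alone is highest from 0 to 250 bp (26.7% of 15).

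At the 5'-most start itself, calls were few. A peak within 250 bp of it was found at 1 of 209 members in old WT Cre replicate 1 (0.478%, 0.0121 to 2.64), at 0 in old WT Cre replicate 2 (a count of 0 allows up to 1.75%), at 1 in young EC-K4KO replicate 1 (0.478%) and at 6 in young EC-K4KO replicate 2 (2.87%, 1.06 to 6.14). In the other protein-coding genes the same rule gave 12.2%, 14.4%, 5.12% and 44.2%, and over chromosome positions it gave 2.77%, 1.35%, 1.06% and 7.79%. The Olfr genes of other chromosomes gave 0.792%, 0%, 0.905% and 3.05%. Members were below both the other genes and the chromosome positions in 4 of 4 libraries.

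The peaks counted at members were denser on coding exons than on the rest of the windows in 4 of 4 libraries. Coding exons make up 17.2% of the bases in the members' windows, and 7 of 15, 4 of 7, 10 of 15 and 35 of 76 distinct summits fell in one, 56 of 113 (49.6%) over the 4 libraries. Per Mb there were 39.8, 22.7, 56.8 and 198.8 summits on coding sequence and 9.46, 3.55, 5.92 and 48.5 on the rest of the windows. In windows of other genes on the same chromosomes 7.68% of bases were coding and 19.4% of 4547 summits fell there, so summits were also denser on coding sequence in that set. The coding bases in the members' windows had 45.4% GC and the other bases 37.0%.

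Each member's own coding region, 915 to 1039 bp long with a median GC of 43.9%, overlapped a peak in 7, 4, 12 and 38 of the 209 members, or 3.35%, 1.91%, 5.74% and 18.2%. An interval of the same median length placed on every position of these chromosomes would give 4.31%, 2.12%, 1.68% and 12.1%. Coding regions were thus slightly below that rate in both old WT Cre libraries and above it in both young EC-K4KO libraries, and the rate for young EC-K4KO replicate 1 lay outside the interval of 3.002 to 9.81%, as did that for young EC-K4KO replicate 2 outside 13.2 to 24.1%. On chromosome 11, where coding GC had a median of 49.97%, 6, 3, 12 and 26 of 80 coding regions had a peak. On chromosome 9, at 41.7%, the counts were 1, 1, 0 and 12 of 129.

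**Figure D5:**
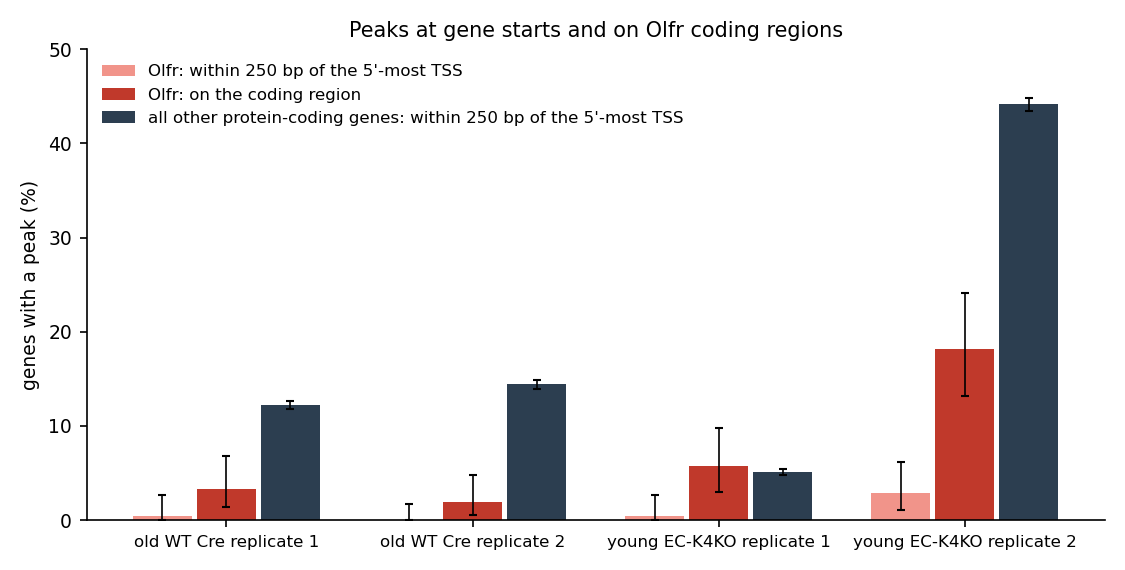
Percent of genes with a peak (vertical axis) in each library (horizontal axis), for the Olfr genes at their 5'-most start and on their coding region and for all other protein-coding genes at their start, with 95% exact binomial intervals. The bars for Olfr starts stand at 0.478%, 0%, 0.478% and 2.87%, below the bars for Olfr coding regions in every library.

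The 5 members with a TSS peak in 3 libraries were Olfr853 on chromosome 9 and Olfr54, Olfr315, Olfr20 and Olfr411 on chromosome 11, each an odorant receptor gene. The sequences around their 5'-most starts are shown because the calls at these genes might be taken for promoter signal. No printed stretch lies under a TSS peak. The distances given below for each gene are from its nearest annotated start, which can be another one than the start printed. They run from 250 bp before to 30 bp after the start on the gene's strand, read from GRCm38.p6, and capitals mark matches to TAATTA (the core of homeodomain sites) and TATAAA (the TATA box) on either strand.
Olfr853 chr9:19541047-19541326 (minus strand): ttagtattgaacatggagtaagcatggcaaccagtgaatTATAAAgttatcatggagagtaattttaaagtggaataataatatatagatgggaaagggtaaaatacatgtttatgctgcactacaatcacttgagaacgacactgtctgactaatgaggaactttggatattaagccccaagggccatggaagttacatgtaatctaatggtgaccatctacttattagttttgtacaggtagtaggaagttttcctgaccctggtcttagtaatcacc
Olfr54 chr11:51013986-51014265 (plus strand): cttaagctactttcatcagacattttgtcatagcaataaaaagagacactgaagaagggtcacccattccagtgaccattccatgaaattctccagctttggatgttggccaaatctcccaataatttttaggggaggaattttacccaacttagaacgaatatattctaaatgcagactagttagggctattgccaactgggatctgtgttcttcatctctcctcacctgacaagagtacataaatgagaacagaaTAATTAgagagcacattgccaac
Olfr315 chr11:58772938-58773217 (plus strand): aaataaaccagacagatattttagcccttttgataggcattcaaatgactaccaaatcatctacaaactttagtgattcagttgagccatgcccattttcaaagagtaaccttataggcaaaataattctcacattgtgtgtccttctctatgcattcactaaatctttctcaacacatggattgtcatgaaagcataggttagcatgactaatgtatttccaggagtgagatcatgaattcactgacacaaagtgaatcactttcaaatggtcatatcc
Olfr20 chr11:73350533-73350812 (plus strand): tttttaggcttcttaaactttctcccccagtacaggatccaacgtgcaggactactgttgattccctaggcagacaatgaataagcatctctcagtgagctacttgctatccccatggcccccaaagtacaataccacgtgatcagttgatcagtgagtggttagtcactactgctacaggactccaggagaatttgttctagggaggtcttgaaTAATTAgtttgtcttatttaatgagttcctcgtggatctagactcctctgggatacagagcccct
Olfr411 chr11:74352621-74352900 (minus strand): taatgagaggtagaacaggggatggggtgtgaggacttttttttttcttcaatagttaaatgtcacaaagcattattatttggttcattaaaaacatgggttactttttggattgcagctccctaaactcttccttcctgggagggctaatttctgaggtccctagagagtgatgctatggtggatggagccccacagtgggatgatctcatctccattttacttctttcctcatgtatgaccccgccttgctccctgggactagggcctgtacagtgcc
Olfr24 chr9:18763967-18764246 (minus strand): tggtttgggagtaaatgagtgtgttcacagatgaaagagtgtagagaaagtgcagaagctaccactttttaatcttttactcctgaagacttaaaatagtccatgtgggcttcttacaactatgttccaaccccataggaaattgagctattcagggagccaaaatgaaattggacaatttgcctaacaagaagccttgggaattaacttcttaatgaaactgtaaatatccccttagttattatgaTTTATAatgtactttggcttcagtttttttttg
Olfr828 chr9:18819497-18819776 (minus strand): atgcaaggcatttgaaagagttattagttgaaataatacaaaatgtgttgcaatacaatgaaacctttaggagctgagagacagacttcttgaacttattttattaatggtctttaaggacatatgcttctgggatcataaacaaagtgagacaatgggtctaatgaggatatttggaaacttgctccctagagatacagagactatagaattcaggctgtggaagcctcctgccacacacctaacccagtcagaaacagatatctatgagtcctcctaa
The last 2 of these, Olfr24 and Olfr828, are the first members along chromosome 9 with no TSS peak in any library. GC content was 35.4% to 45% in the 5 called genes and 35.4% and 37.9% in the 2 uncalled ones, with 0 to 3 CpG dinucleotides in the former and 0 in the latter. None of the 7 stretches held the Olf/EBF core TCCCNNGGG or the ETS site ACTTCCGG.

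Olfr853 (ENSMUSG00000051160.4, chr9:19534202-19541076, minus strand) was called in old WT Cre replicate 2, young EC-K4KO replicate 1 and young EC-K4KO replicate 2, with fold enrichments of 4.10, 4.78 and 3.92 over the library's own local background. The first 2 peaks overlapped each other on a non-coding exon, with summits 1347 and 1333 bp downstream of the nearest TSS, where 75% and 66.8% of the peak's bases are repeat sequence. The peak of young EC-K4KO replicate 2 lay 372 bp downstream, in the coding exon, and overlapped neither.

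Olfr54 (ENSMUSG00000059397.2, chr11:51014236-51031578, plus strand) was the only member with a TSS peak in both old WT Cre libraries. Their upstream peaks overlapped, with summits at -1151 and -1361 bp from the TSS and fold enrichments of 3.57 and 5.59, and 71.3% and 70.9% of their bases are repeats. Old WT Cre replicate 2 had another at 4.47 fold on the coding exon, 119 bp downstream of another start. Young EC-K4KO replicate 2 had 3 peaks, at 3.73 to 4.85 fold, which overlapped neither of them.

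Olfr315 (ENSMUSG00000056959.6, chr11:58773188-58780251, plus strand) had a peak of 4.13 fold at -686 bp from a TSS in old WT Cre replicate 1. The peaks of young EC-K4KO replicates 1 and 2, at 4.75 and 4.64 fold, lay 768 and 484 bp downstream in the coding exon and overlapped. Olfr20 (ENSMUSG00000062128.8, chr11:73350783-73355951, plus strand) had peaks in young EC-K4KO replicates 1 and 2 that also overlapped on the coding exon, at 4.46 and 4.79 fold and 168 and 63 bp from a TSS. Its peak in old WT Cre replicate 2, at 5.97 fold, was the strongest of any member in that library, and its summit lay at -1517 bp, with the peak's edge inside the window and 89.2% of its bases in repeats.

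Olfr411 (ENSMUSG00000054406.9, chr11:74345129-74352650, minus strand) had overlapping peaks from old WT Cre replicate 2 and young EC-K4KO replicate 1, at 4.85 and 4.14 fold, 473 and 503 bp downstream of a TSS on the coding exon. Its strongest peak in young EC-K4KO replicate 2, at 6.96 fold, lay in the intron. No member had 1 site called in 3 libraries: of the 117 peaks at members, 20 overlapped a peak of another library and none overlapped peaks of more than 1. By library 18.75%, 62.5%, 37.5% and 7.79% of the peaks at members overlapped one of another library, beside 31.6%, 49.2%, 38.3% and 14.1% of all peaks of chromosomes 9 and 11, so the members' share was lower in 3 of 4 libraries and higher in old WT Cre replicate 2. Over all peaks of chromosomes 9 and 11, 0.750% to 5.41% of each list had an overlapping peak in all 3 other libraries.

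In all, 7 sites had overlapping peaks of 2 libraries with both summits in a coding exon. Those of Olfr981 and Olfr411 are shown, because there the joined peaks are at most 300 bp long, share at least 30 bases and lie almost wholly in coding sequence. The line spans both peaks on the coding strand, and capitals mark the bases that lie under both.
Olfr981 chr9:40023077-40023315 (plus strand): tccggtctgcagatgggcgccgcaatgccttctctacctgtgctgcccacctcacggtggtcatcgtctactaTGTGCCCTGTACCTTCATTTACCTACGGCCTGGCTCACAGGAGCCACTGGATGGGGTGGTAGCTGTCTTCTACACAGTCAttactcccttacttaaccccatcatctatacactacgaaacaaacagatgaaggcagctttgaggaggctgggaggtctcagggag
Olfr411 chr11:74347054-74347293 (minus strand): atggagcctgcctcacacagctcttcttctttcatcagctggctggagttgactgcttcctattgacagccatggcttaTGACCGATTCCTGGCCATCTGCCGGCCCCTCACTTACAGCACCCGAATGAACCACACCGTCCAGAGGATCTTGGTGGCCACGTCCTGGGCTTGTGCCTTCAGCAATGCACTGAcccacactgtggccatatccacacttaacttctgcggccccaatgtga
The peaks shared 80 bases at Olfr981 (old WT Cre replicate 2 and young EC-K4KO replicate 2) and 113 at Olfr411 (old WT Cre replicate 2 and young EC-K4KO replicate 1). GC content was 54.0% and 55.4%, with 7 and 6 CpG dinucleotides, well above the 35.4% to 45% of the starts printed before.

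The members called in both young EC-K4KO libraries but in no old WT Cre one were Olfr318, Olfr319, Olfr330, Olfr390 and Olfr401, all on chromosome 11. They are 2.39% of members, and 3.12% of all protein-coding genes met the same rule, which is near that share. Their highest fold enrichments were 5.10 and 5.66 at Olfr318, 3.82 and 7.84 at Olfr319, 3.82 and 6.09 at Olfr330, 3.51 and 3.92 at Olfr390, and 4.28 and 6.60 at Olfr401, in replicates 1 and 2. Only at Olfr330 did the peaks of the 2 libraries overlap, 267 and 257 bp downstream of a TSS. Of all young EC-K4KO replicate 1 peaks on chromosomes 9 and 11, 29.1% were overlapped by a peak of replicate 2.

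The strongest TSS peak at any member was in old WT Cre replicate 1 at Olfr316 on chromosome 11, with a pileup of 46 fragments, a fold enrichment of 8.83 and a −log10 q of 27.3. Its summit lay at -1288 bp from the TSS, and 89.7% of its bases are repeats. Olfr325 (5.54 fold, at -309 bp) and Olfr875 (4.88 fold, at -956 bp) came next in that library. After Olfr20, the highest in old WT Cre replicate 2 were Olfr322 and Olfr54, both at 5.59 fold. The highest of young EC-K4KO replicate 1 was Olfr318 at 5.10 fold, and Olfr853, Olfr893 and Olfr922 tied for the next place at 4.78 fold. Those of young EC-K4KO replicate 2 were Olfr319 at 7.84, Olfr411 at 6.96 and Olfr30 at 6.72 fold.

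The strength of peaks at members depended on the measure and the library. Their median fold enrichment was 3.94, 4.66, 4.21 and 4.79, beside 3.88, 4.85, 4.14 and 5.22 for peaks at other protein-coding TSSs. The median pileup was 20, 11.5, 13 and 11 fragments against 21, 13, 14 and 17. A q of at most 1e-05 was reached by 62.5%, 37.5%, 6.25% and 49.4% of peaks at members and by 56.5%, 51.5%, 32.01% and 75.4% of those at other TSSs, so the members' share was lower in 3 of 4 libraries. In lists of equal length, the 35638 peaks of lowest q in each library, young EC-K4KO replicate 2 kept a TSS peak at 2 members (0.957%) while 27.96% of the other genes kept one. Old WT Cre replicates 1 and 2 kept one at 6 members each (2.87%), with 11.9% and 22.8% of the other genes.

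The sequence under these peaks was richer in GC than the members' windows at the 5'-most start. Median GC of the peaks at members was 54.2%, 55.2%, 51.9% and 51.0%. Over all members the windows at the 5'-most start, many of which do not hold the peak, had a median of 37.7%. GC of the sequence directly around each peak was not measured. All peaks of chromosomes 9 and 11 had medians of 53.7%, 56.5%, 54.7% and 54.2%. At least 50% of the bases were repeats in 28 of the 117 peaks, 5 of 16, 4 of 8, 4 of 16 and 15 of 77 by library. Because receptor genes are copies of one another, each stretch of 32 bases under a peak was also counted over the genome: 40 of 117 peaks held none that occurs elsewhere, and in 34 at least 50% of them did. Young EC-K4KO replicate 2 gave 31 of the former and 21 of the latter, and the median share was 21.5%, 19.0%, 33.6% and 18.75% by library. Whether reads or fragments from these copies mapped to a single place was not measured. Of the 117 peaks, 1 lay near the TSS of a coding gene outside the family, the peak of Olfr56 in old WT Cre replicate 1, which lies near Ifi47, an interferon-induced GTPase gene.

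Members formed 9 clusters when starts up to 500000 bp apart were joined. The larger chromosome 9 cluster (chr9:37714750-40182420) held 93 members and the smaller (chr9:18762496-20337594) 36. In the larger one 4.30%, 1.08%, 4.30% and 19.4% of members had a TSS peak in the 4 libraries, and in the smaller one 2.78%, 2.78%, 2.78% and 19.4%. Peaks of any kind were sparser in both clusters than over the chromosome in 3 libraries. In the order used above, without young EC-K4KO replicate 1, the larger cluster held 19.0, 8.51 and 47.0 per Mb against 35.6, 17.8 and 104 per Mb. In young EC-K4KO replicate 1 the density was 14.99 per Mb in that cluster and 14.9 per Mb on the chromosome.

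On chromosome 11 the cluster of Olfr30 to Olfr311 (chr11:58460770-58840759) held 20 members, which had a TSS peak in 25%, 5%, 30% and 65% of cases, and clusters of 2 to 5 members reached higher shares in old WT Cre replicate 2 and young EC-K4KO replicate 2. It held 39.5, 15.8, 39.5 and 150 peaks per Mb, where the chromosome held 37.7, 18.5, 13.9 and 114. Its GC content over the whole span was 43.0%, above the 37.7% of the larger chromosome 9 cluster. The 29 members of the longest chromosome 11 cluster (chr11:73349283-74363569) gave 10.3%, 6.90%, 13.8% and 41.4%, and the 19 of the first (chr11:48977389-49558378) gave 5.26%, 0%, 0% and 31.6%. By chromosome, 3.88%, 1.55%, 3.88% and 19.4% of the 129 members on chromosome 9 and 12.5%, 6.25%, 12.5% and 47.5% of the 80 on chromosome 11 had a TSS peak. With the 5'-most start alone the order held in 3 libraries, at 2.33%, 0%, 2.33% and 11.6% on chromosome 9 and 3.75%, 3.75%, 1.25% and 17.5% on chromosome 11. Other genes did not share it with all starts: for them the share on chromosome 11 minus that on chromosome 9 was -3.83 to -0.345 points in the 4 libraries. The members' window GC had a median of 35.3% on chromosome 9 and 41.0% on chromosome 11, and its part in the difference was not tested.

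Other tissue-restricted families were counted in the same way. The 884 Olfr genes of other chromosomes had a TSS peak in 7.47%, 2.49%, 5.66% and 23.9% of cases, within the members' intervals in 3 of 4 libraries. The 327 Vmn1r and Vmn2r genes, the vomeronasal receptors of pheromone-sensing neurons, had one in 4.89%, 1.53%, 5.20% and 14.7%. The 23 Krtap genes of chromosome 11, which encode hair keratin-associated proteins, had one in 13.0%, 34.8%, 13.0% and 91.3%, with a median window GC of 43.7%. Genes with no known endothelial role thus ranged from 14.7% to 91.3% in young EC-K4KO replicate 2 alone, and the Krtap genes were above all other protein-coding genes in 3 of 4 libraries.

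Set side by side by group, the share of members averaged 5.26 ± 2.71% over the old WT Cre libraries and 18.7 ± 16.2% over those of young EC-K4KO mice (SD, n = 2 each). The difference of 13.4 points was smaller than the spread within young EC-K4KO (p = 0.6667 in a two-sided exact permutation test, in which no p below 0.3333 is possible). It was 1.91 points without young EC-K4KO replicate 2, 24.9 points without young EC-K4KO replicate 1, and 1.196 points with lists of equal length. The other protein-coding genes moved by 14.1 points in the same direction (p = 1.0 in the same exact permutation test). The ratio of the members' share to theirs averaged 0.207 ± 0.101 over the old WT Cre libraries and 0.558 ± 0.161 over the young EC-K4KO ones (SD, n = 2 each, exact permutation test, p = 0.3333, the smallest possible). This order did not hold at other settings. With lists of equal length young EC-K4KO replicate 2 had the lowest ratio, from 0.957% of members and 27.96% of other genes. At a q of 1e-05 young EC-K4KO replicate 1 (0.478% and 3.37%) had a lower ratio than old WT Cre replicate 1 (4.31% and 15.2%).

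Genes that carry out or control odorant signalling were counted by the same rule. Of 32 listed genes 7, 8, 3 and 25 had a TSS peak, or 21.9%, 25%, 9.38% and 78.1%, near the 25.6%, 24.5%, 10.6% and 67.5% of all protein-coding genes. Of the 15 signal transduction genes 4, 3, 2 and 12 had one, of the 3 trafficking genes 1, 1, 0 and 1, and of the 14 regulators 2, 4, 1 and 12. Those with a TSS peak in 3 libraries were Ric8b, an exchange factor for Golf, Pde1c, a phosphodiesterase that degrades cyclic nucleotides, Reep1, a membrane-shaping protein, and Ebf3, a transcription factor of the Olf/EBF family. Ano2, a calcium-activated chloride channel, and Cbx5, the heterochromatin protein HP1 alpha, had one in each young EC-K4KO library and in no old WT Cre library, at 4.15 and 3.74 fold for Ano2 and at 4.205 and 10.9 fold for Cbx5. They are 2 of 32 listed genes, where the same rule was met by 3.12% of all protein-coding genes. Omp and Gng13, abundant in mature olfactory neurons, and Rtp1 and Rtp2, which carry receptors to the cell surface, had none in any library. Cngb1, Ebf1 and Eif2ak3 had none either. Cnga4 had one in old WT Cre replicate 1 and young EC-K4KO replicate 2, at 4.78 and 3.33 fold. Cnga2 and Stoml3 had one in young EC-K4KO replicate 2 alone, at 9.14 and 7.06 fold. Many of these genes are also used outside the nose.

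In the 300 bp around the 5'-most start, the homeodomain core TAATTA was present in 22.5% of members and 4.95% of other protein-coding genes, the Olf/EBF core TCCCNNGGG in 12.4% and 7.74%, the TATA box TATAAA in 29.7% and 12.3%, and the ETS site ACTTCCGG in 0% and 4.99%, each on either strand. Members with and without a TSS peak had similar shares, 24% and 21.6% for TAATTA, 14.7% and 11.2% for TCCCNNGGG and 28% and 30.6% for TATAAA. These matches describe the letters of the windows and are not binding sites.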

How the data were processed

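The data were Pol II ChIP-seq peak lists of 4 libraries. According to the study's methods the authors digested the chromatin with MNase, trimmed the reads, aligned them with Bowtie2 to mm10, removed duplicates, and called peaks in each library alone. Per the file headers MACS 2.2.7.1 was run on fragment pairs at a q of 0.01 with no control library. The deposited tables give for each peak its pileup (a coverage signal in fragments), its fold enrichment (the ratio to the local background in that library) and the −log10 p-value and q-value; the authors did not scale them between libraries. The deposited narrow peak and summit files hold the same peaks and were not used.

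Peaks were joined to GENCODE M21 basic protein-coding genes in Python 3.11.15 (numpy 2.4.6, pandas 2.3.3, scipy 1.17.1, matplotlib 3.10.9), and GC content, repeats (lower case letters), motifs and 32-base copies were read from GRCm38.p6. Copies were counted on the assembled chromosomes alone. The rate for a start placed anywhere is the share of sequenced positions near a peak, counted exactly. Genes of like length or GC content are all such genes, described without a test. Groups were compared by exact permutation of libraries, and other differences by exact sign flips over the 4 libraries. The methods call the libraries biological replicates, and p-values measure the spread between them.

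The members, the gene lists and the motifs were chosen with earlier results of these data known. Members named are those with a TSS peak in at least 3 libraries or in both libraries of a group, and the 3 of highest fold enrichment in each library. Listed pathway genes are named when they have a TSS peak in at least 3 libraries, or in both of 1 group and neither of the other; the other pathway and marker genes named, and Olfr56, Olfr981 and Olfr922 (a tie), were chosen after their values were seen. Other settings were a q of 1e-05, lists of equal length, windows of 500 and 3000 bp, summits in place of intervals, members with an annotated 5' UTR, each chromosome alone, the 5'-most start alone (chosen after seeing the data) and leaving out each library. The counting was tested on simulated data with planted peaks. The depth of the libraries, 22705175 to 65734178 fragments, and the smallest called pileups of 7 to 13 fragments limit what could be called.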

Additional observations from a re-analysis of the deposited data

How the results depend on the processing

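The mean difference between members and other genes stayed below 0 under all settings tried, with means from -25.9 to -14.5 points when 1 library was left out. On chromosome 11 alone members were higher in young EC-K4KO replicate 1 (12.5% against 10.3%), with a mean of -15.9 points (exact sign-flip permutation, p = 0.25). The difference to chromosome positions did not: it was 0.674 points with a 500 bp window, 6.45 on chromosome 11 alone, and -2.00 to 0.239 points when 1 library was left out. The cause was not tested. Shares of members in old WT Cre replicate 1, young EC-K4KO replicate 1 and young EC-K4KO replicate 2 moved as follows. With a 3000 bp window they were 13.9%, 12.9% and 42.6%, on chromosome 9 alone 3.88%, 3.88% and 19.4%, on chromosome 11 alone 12.5%, 12.5% and 47.5%, and with the 5'-most start alone 2.87%, 1.91% and 13.9%. With a 500 bp window the first and last were 2.39% and 15.3%, with lists of equal length 2.87% and 0.957%, and at a q of 1e-05 the last 2 were 0.478% and 17.2%. The lists are shorter by construction in the last 2 settings. The share in old WT Cre replicate 2 ran from 1.44% (a q of 1e-05) to 6.70% (3000 bp), within its counting interval.

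The count of members in both old WT Cre libraries, 1, was 0 at a q of 1e-05, with lists of equal length, with a 500 bp window and on chromosome 9, 4 with a 3000 bp window, and 7 to 15 with 1 library alone. The count in both young EC-K4KO libraries, 9, was 1 at a q of 1e-05, with lists of equal length and on chromosome 9, 4 and 16 with windows of 500 and 3000 bp, 0 with the 5'-most start, and 15 to 63 with 1 library alone. Summits within 250 bp of a TSS at a q of 1e-05 were 0% for old WT Cre replicate 2 and, with 1 summit left, 100% for young EC-K4KO replicate 1, and with lists of equal length 0% for young EC-K4KO replicate 2. The difference between groups, 13.4 points, was 1.196 with lists of equal length, 5.74 with the 5'-most start, 5.98 at a q of 1e-05, 7.66 with a 500 bp window, 20.6 on chromosome 11 alone, and 1.91 to 24.9 points when 1 library was left out. With the replicate number as a block it was 13.4 points (exact permutation, p = 1.0, no p below 0.5 possible). The main comparison took the numbers to pair nothing. Deviations of same-numbered libraries from their group mean correlated at -0.134 over members. With 2 libraries per group this is the same value for both numbers by construction, so it cannot show whether the numbers pair anything. The crossed pairing gave p = 0.5 by exact permutation.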

Other observations

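Some values fall outside these comparisons. The 12 members whose annotation holds the coding sequence alone, with no 5' UTR, had no TSS peak in 3 libraries and 1 in young EC-K4KO replicate 2, so 0 of 12 allows a share of up to 26.5%. Among members with 1, 2, 3 and 4 annotated starts, 17.1%, 28.9%, 42.9% and 50% had a TSS peak in young EC-K4KO replicate 2, against 5.71%, 6.25%, 11.9% and 0% in old WT Cre replicate 1, 0%, 3.91%, 4.76% and 0% in old WT Cre replicate 2, and 2.86%, 8.59%, 4.76% and 25% in young EC-K4KO replicate 1. The last class holds 4 members. The members' 32-base stretches were found elsewhere in the genome for a median of 9.26% of each gene's window, from 0% to 69.0%, and the median was 9.62% in members with a TSS peak in at least 1 library and 8.91% in those with none.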
